A study of Mus musculus with 39 samples.

Results

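The comparison set 7 nucleus accumbens (NAc) astrocyte libraries of resilient male mice against 7 of control male mice, 14 of the 39 RNA sequencing libraries in the series. Resilient mice had gone through chronic social defeat stress, a procedure in which a mouse is exposed again and again to an aggressor, and kept their social behaviour afterwards. The labels call the other group Control and give neither strain nor age for any mouse. All mice were sampled as sorted cells: tissue was punched fresh from both sides, and astrocytes were pulled out with magnetic beads against ACSA-2, a surface epitope of the sodium pump subunit encoded by Atp1b2. Every library carries its own mouse number, and no label reports a transgene, a drug or pooled animals. A further 8 NAc libraries of susceptible mice entered the fits but were not compared. They helped set the spread, the scaling, the count filter, the background term and the choice of genes above background, as described below.

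Genes were described if they lay well above background. The background was the cover of 1479 olfactory, vomeronasal and trace-amine receptor genes, which are silent in most tissues outside the sense organs. A gene counted as above background if its mean FPKM (counts scaled to gene span and library total) over the 22 NAc libraries was at least 2 times the mean receptor level of 0.442 FPKM. This held for 15284 genes, and 10551 of them passed the filter on low counts, out of 35943 genes tested. Of those 10551, 6910 (65.5%) code for proteins, 1922 are pseudogenes and 1696 are other noncoding genes.

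The NAc is a ventral striatal region that links reward, motivation and social behaviour, and its principal cells are inhibitory projection neurons. Astrocytes there clear glutamate and potassium, supply metabolites, contact blood vessels with their endfeet and release factors that act on synapses. Heat shock proteins and reticulum chaperones, which recur in the results, keep other proteins folded. Their transcription is raised by heat shock factors and by the unfolded protein response. The series title concerns CREB, a transcription factor that cAMP signalling and calcium activate.

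Library depth and background differed within both groups. Gene counts ranged from 0.941 to 21.9 M (mega) in control and from 3.16 to 37.3 M in resilient libraries (12.4 ± 7.63 against 15.8 ± 12.1 M; SD, n = 7 and 7; two-sided exact permutation test, p = 0.564). The receptor background is given as a percent of an even cover, the FPKM of a library whose counts were spread uniformly over the gene spans. It ran from 35.7 to 59.9% with a median of 58.5% in control libraries, and from 51.1 to 81.1% with a median of 65.3% in resilient libraries. The means were 53.2 ± 9.25 and 64.6 ± 10.5%, a difference of 11.4 points (two-sided exact permutation test over 3432 splits, p = 0.0519). Of the 7 resilient libraries, 5 lay above all controls. The share of counts in genes above background was 34.8 ± 5.71% in resilient and 40.8 ± 5.45% in control libraries (exact permutation p = 0.0670). The background entered the test as a covariate, as planned with earlier results of these data known. The part that background plays in a value with or without the covariate cannot be told apart from the group with these libraries alone.

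**Figure D1:**
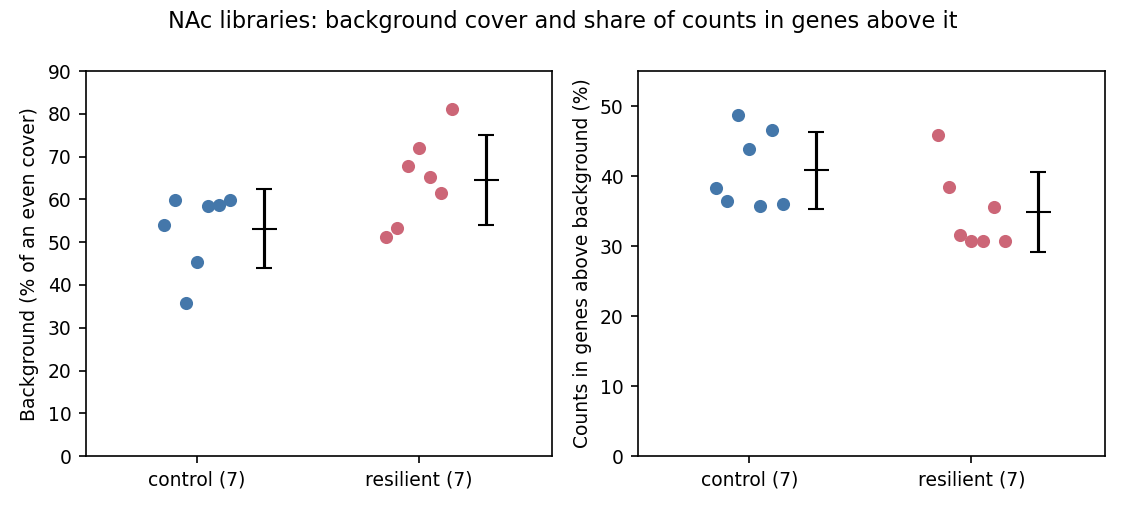
Background cover of the receptor genes (left, percent of an even cover) and share of counts in genes above background (right, percent), 1 point per NAc library in replicate order, with the mean and SD beside each group of 7. The resilient points reach 81.1% background where the controls end at 59.9%, and their share of counts in genes above background is mostly lower.

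No gene differed between resilient and control libraries after adjustment. With the background covariate, edgeR's quasi-likelihood test passed 0 of 35943 genes (smallest adjusted p = 1), and DESeq2 with the same terms also passed 0 (smallest adjusted p = 0.309). At an unadjusted p under 0.05, 245 genes stood higher (0.682% of those tested) and 288 lower (0.801%), in all 533 (1.48%) where about 1800 would if none had changed. DESeq2 had 786 at that level. Among the 10551 genes above background it was 92 higher and 92 lower, 184 or 1.74%, a share near that over all genes. So none of the values below is a call, and they are given as sizes with their errors. On simulated counts the same test recovered 88.4% of 2-fold and 54.2% of 1.5-fold changes. These changes were set only in better counted genes above background, so recovery of thinner genes such as Hspb1 was not measured. Counts were drawn for each gene on its own, without shifts that many genes share in a library. Recovery in the real libraries may therefore be lower.

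Without the covariate the same libraries gave a different picture. Again 0 genes passed (smallest adjusted p = 0.756), while 658 stood higher (1.83%) and 1548 lower (4.31%) at an unadjusted p under 0.05, in all 6.14%. Genes above background made up 54 of the higher and 1222 of the lower ones. Their median log2 fold change was -0.18, against 0.01 over all genes tested, and with the covariate these medians were -0.04 and -0.01. Scaling over genes above background alone, also without the covariate, moved the median of all genes to 0.20 and that of the genes above background to 0.00. That scaling gave 3107 genes higher (8.64%) and 628 lower (1.75%), in all 10.4%. Only 73 genes above background stood at an unadjusted p under 0.05 both with and without the covariate, 39.7% of the 184 and 5.72% of the 1276, and 59 of the 73 were lower.

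The gap between the medians of the 2 fits was wider in strata of genes farther above background. Genes at 2 to 4 times background had a median log2 fold change of -0.15 without the covariate and -0.03 with it (8509 genes). At 4 to 8 times these were -0.38 and -0.08 (1408 genes), and at 8 times or more -0.52 and -0.08 (695 genes). Gene span made little difference to the medians with the covariate, which were -0.04, -0.03, -0.04 and -0.03 for spans under 10 kb, from 10 to 30, from 30 to 100, and over 100 kb. CPM are counts scaled to the library total and by the fit's scaling factor for each library. Within the fit, 4752 genes above background had lower CPM in libraries of higher background at an adjusted p under 0.05 (edgeR). Another 128 had higher CPM, where 16.1 and 8.72% of all genes had lower and higher CPM. Part of that slope follows from CPM being shares of 1 total.

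**Figure D2:**
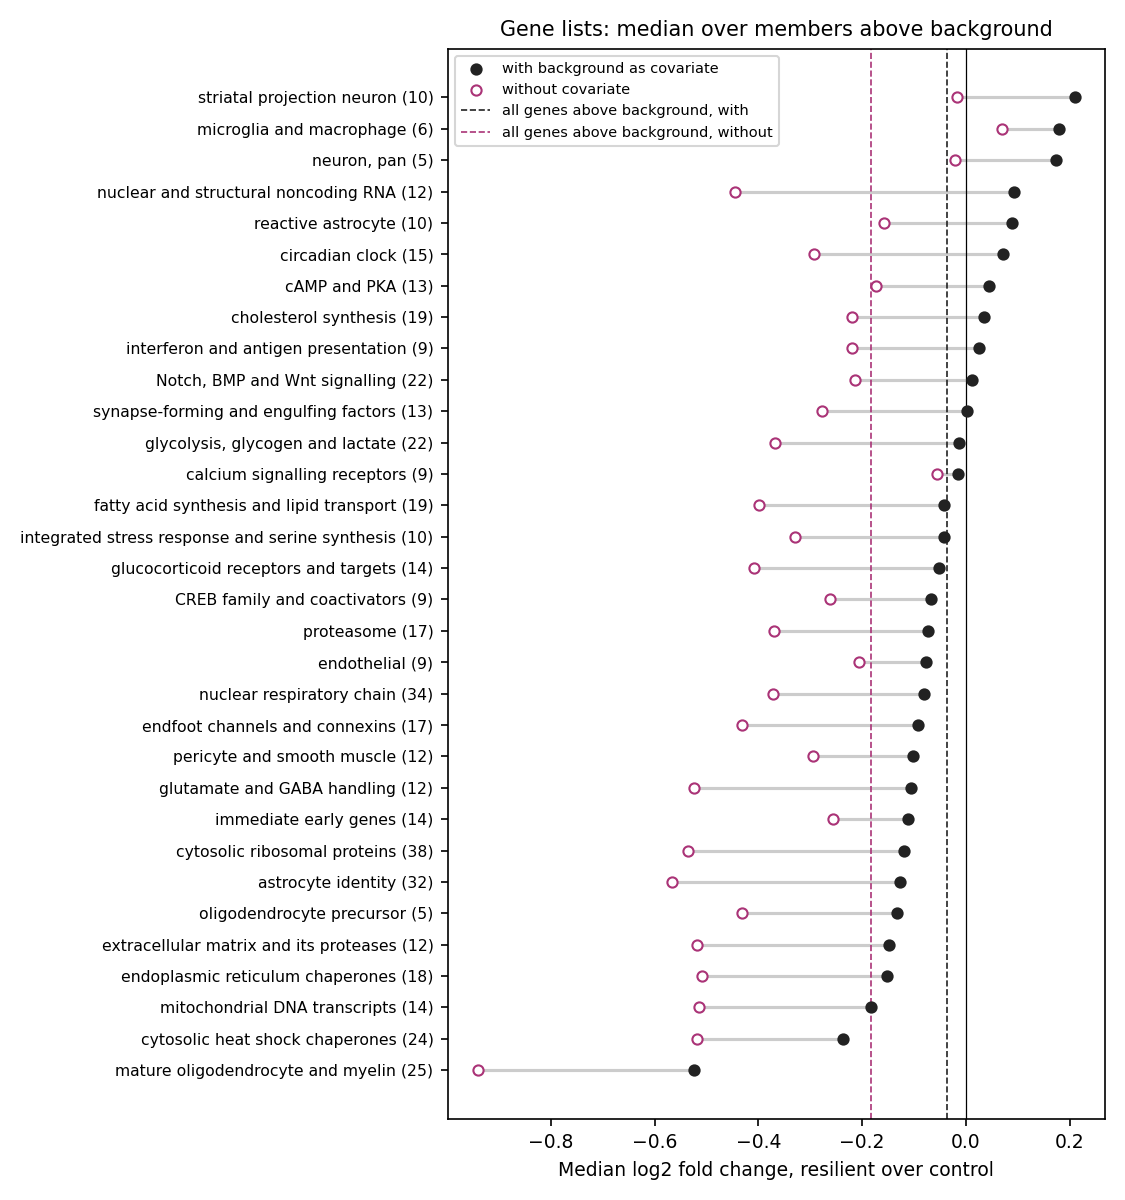
Median log2 fold change, resilient over control, of the members above background of each gene list with at least 5 of them (number in brackets), with the background percent as covariate (filled) and without it (open). Dashed lines mark the medians of all genes above background. Oligodendrocyte genes and cytosolic heat shock chaperones are lowest in the fit with the covariate, at -0.52 and -0.24, and striatal projection neuron genes highest at 0.21.

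Chaperones of the cytosol and the endoplasmic reticulum stood lower in resilient astrocyte libraries. The list called cytosolic here also holds Hspd1, a mitochondrial chaperone. Of 24 cytosolic heat shock members above background, 23 were lower and 1 higher, with a median log2 fold change of -0.24 beside -0.04 for all genes above background. None passed the test, and 3 were at an unadjusted p under 0.05. Among all genes above background 58.2% were lower and 1.74% were at that level in either direction. Of 18 reticulum chaperones, 17 were lower (median -0.15), 0 passed and 1 was at that level. Without the covariate the medians were -0.52 and -0.51, and 14 and 6 members were at that level, where 76.6% of all genes above background were lower and 12.1% were at that level. The cytosolic exception was Hsf1, the heat shock factor itself, at 0.16 on the log2 scale, and the reticulum exception was Hyou1 at 0.04. Both were singled out after their values were seen.

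Hspb1, a small heat shock protein that binds unfolded proteins (chromosome 5, 135887919 to 135889563 on mm10), was lowest at 1.65, median 2.38 and highest at 2.94 CPM in control libraries. The resilient libraries gave 0.511, 0.909 and 1.96 CPM. All 7 resilient libraries lay below the control median, and 5 of them below every control. The difference was -0.91 ± 0.30 on the log2 scale (SE; unadjusted p = 0.00479, adjusted p = 1, edgeR) and -1.01 without the covariate. The gene is thinly counted, with 2 to 57 counts in a library, and the 2 are in control replicate 3, the shallowest library.

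Dnaja1, a co-chaperone that hands substrates to Hsp70 (chromosome 4, 40722150 to 40737149), ran from 18.1 through a median of 24.6 to 39.1 CPM in control libraries. In resilient libraries it ran from 7.83 through 14.4 to 19.4 CPM, and again 5 of 7 lay below every control. Its log2 difference was -0.57 ± 0.20 (unadjusted p = 0.00850), and -0.80 without the covariate. Hsp90aa1, the stress-inducible cytosolic Hsp90 (chromosome 12, 110690605 to 110702728), ran from 31.9 through 112 to 303 CPM in control and from 25.1 through 34.2 to 101 CPM in resilient libraries. These groups overlapped more, with 2 resilient libraries below all controls. The log2 difference was -0.77 ± 0.31 (unadjusted p = 0.0226) and -1.37 without the covariate. Hspa8, the constitutive Hsp70 (chromosome 9, 40800984 to 40810087), had medians of 155 and 53.1 CPM in control and resilient libraries, and a log2 difference of -0.61 ± 0.31 (unadjusted p = 0.0650), with -1.07 without the covariate.

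Hspa5, the Hsp70 of the endoplasmic reticulum also called BiP (chromosome 2, 34771970 to 34777547), ran from 31.7 through 55.3 to 84.7 CPM in control libraries. Resilient libraries ran from 13.8 through 21.6 to 65.8 CPM, with 5 of 7 below every control and replicate 1 above the control median. The log2 difference was -0.57 ± 0.25 (unadjusted p = 0.0344) and -0.97 without the covariate. A narrower look at 5 control and 3 resilient libraries with a background between 50 and 62%, chosen after the data were seen and fitted without the covariate, gave -0.79 for Hspb1, -0.46 for Dnaja1, -0.43 for Hsp90aa1, -0.24 for Hspa8 and -0.22 for Hspa5. Over those libraries the cytosolic list had a median of -0.07 and the reticulum list of 0.01. Control replicate 6 carried much of both medians: without it they were -0.09 and 0.02. Leaving it out also moved Hsp90aa1 to -0.53, Dnaja1 to -0.37, Hspa8 to -0.26 and Hspa5 to -0.33, while Hspb1 stood at -0.84.

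**Figure D3:**
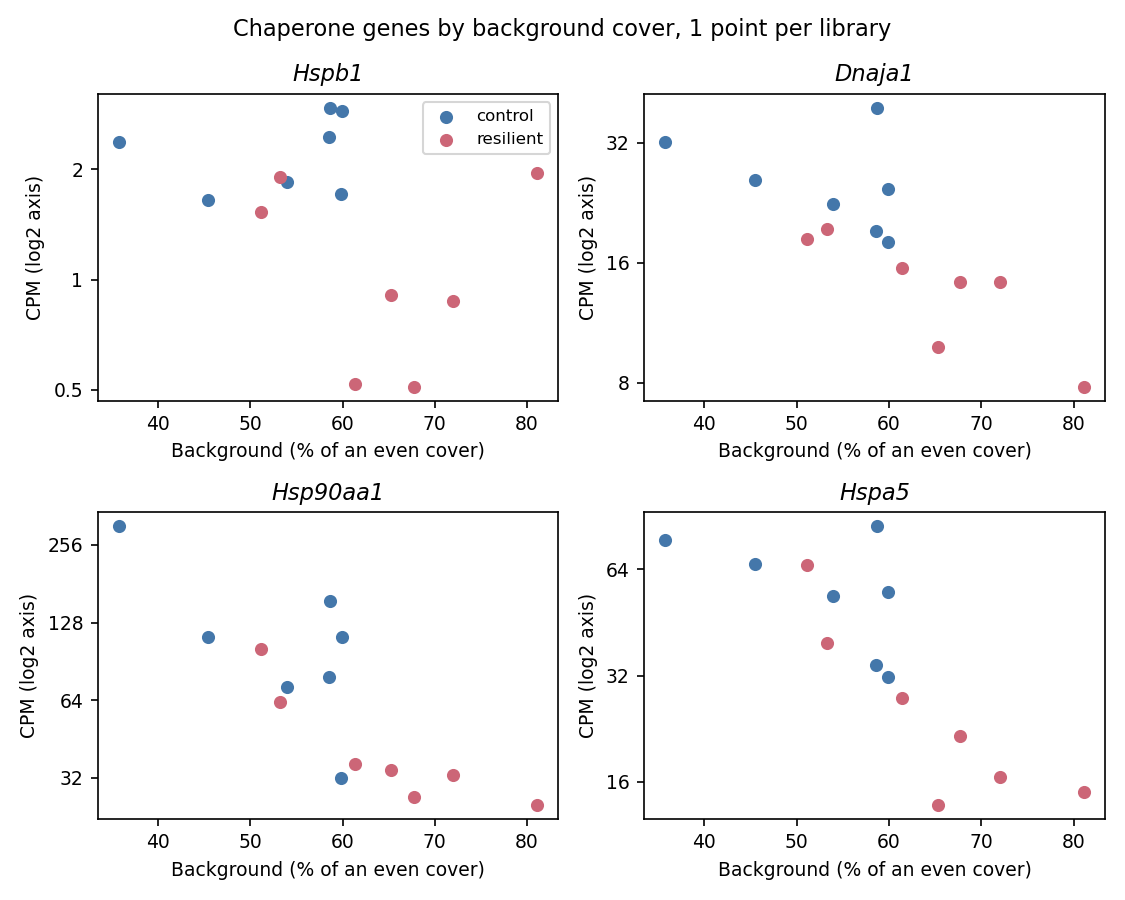
CPM on a log2 axis against background (percent of an even cover) for Hspb1, Dnaja1, Hsp90aa1 and Hspa5, 1 point per library, control and resilient by colour. CPM decreases to the right for Dnaja1, Hsp90aa1 and Hspa5, and both groups have points only in the middle of each panel.

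The promoters of 3 of these chaperones hold matches to elements, or parts of elements, that are known to drive such genes. The promoter set used had no entry for Hsp90aa1 or Hspa8, so theirs were not searched. The stretches are the 250 bases before the RefSeq start site (GRCm38.p6), 5′ to 3′ on the gene's strand, with the matching letters in capitals. In Hspb1 (chr5:135887669-135887918, plus strand) and Dnaja1 (chr4:40722218-40722467, plus strand) the capitals mark inverted pairs of the heat shock element (GAANNTTC or TTCNNGAA). In Hspa5 (chr2:34771840-34772089, plus strand) they mark the endoplasmic reticulum stress element (ERSE).
Hspb1: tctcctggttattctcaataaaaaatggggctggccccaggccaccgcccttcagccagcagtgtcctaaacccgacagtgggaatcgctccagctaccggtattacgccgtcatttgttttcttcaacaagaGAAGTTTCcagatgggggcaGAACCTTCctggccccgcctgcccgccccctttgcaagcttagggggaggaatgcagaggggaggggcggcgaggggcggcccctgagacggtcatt
Dnaja1: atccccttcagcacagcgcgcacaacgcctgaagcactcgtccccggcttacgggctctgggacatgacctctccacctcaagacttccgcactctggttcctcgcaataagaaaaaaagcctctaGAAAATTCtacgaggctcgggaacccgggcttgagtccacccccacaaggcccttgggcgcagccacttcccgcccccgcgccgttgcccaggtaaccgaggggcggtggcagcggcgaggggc
Hspa5: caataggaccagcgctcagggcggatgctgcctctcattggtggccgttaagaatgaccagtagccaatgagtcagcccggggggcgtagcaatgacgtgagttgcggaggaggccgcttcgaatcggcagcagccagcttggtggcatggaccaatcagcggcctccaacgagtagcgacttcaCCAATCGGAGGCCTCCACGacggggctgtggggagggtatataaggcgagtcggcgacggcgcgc
Searched on both strands of windows that also take in the first 50 transcribed bases, the inverted pair occurred in 15.1% of 32851 promoters and in 11.3% of those of genes above background. It occurred in 44% of 25 promoters, from 17 genes, of the cytosolic heat shock members. The full element of 3 alternating units, which contains the pair, occurred in 0.603% of all promoters and 16% of these 25. No promoter of Hspb1 or Dnaja1 held the full element, while a promoter of Hspd1, the mitochondrial chaperone on that list, did. The reticulum element occurred in 0.119%. Dnaja1 has 2 further RefSeq start sites without any of these matches. The pair and the reticulum element, and the Hspa5 promoter, were added after the values had been seen. Among 45 promoters of genes above background at an unadjusted p under 0.05 on the lower side, 20% held the pair, and among 70 on the higher side 8.57% did. The lower side includes Hspb1 and Dnaja1, whose values had been seen before the pair was added, so this contrast is not an independent check. The full element was in 0 of these 45 and in 1.43% of these 70.

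Myelin and mature oligodendrocyte genes stood lower in resilient libraries. All 25 members above background were below 0 with the covariate on the log2 scale, with a median of -0.52, and 0 passed. At an unadjusted p under 0.05 there were 3 with the covariate and 24 without it, where the median was -0.94. Of all genes above background, 1.74 and 12.1% were at that level in these fits. Without control replicate 6 the list's median with the covariate was -0.26. Oligodendrocytes make myelin and are not the target of the ACSA-2 sort. Their summed FPKM over the list ran from 52.1 to 276 with a median of 121 in control libraries, and from 43.2 to 122 with a median of 51.5 in resilient ones. In bulk samples, fewer cells of a type and less RNA per cell cannot be told apart.

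Adamts4, a protease of the extracellular matrix made by oligodendrocytes (chromosome 1, 171250421 to 171260637), had medians of 26.4 and 13.9 CPM in control and resilient libraries, and all 7 resilient libraries lay below the control median. Its log2 difference was -0.60 ± 0.22 (unadjusted p = 0.0122), -1.12 without the covariate and -0.44 without control replicate 6.

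Nkx6-2, a homeobox factor of myelinating cells (chromosome 7, 139579376 to 139582797), had medians of 12.0 and 5.98 CPM and a log2 difference of -0.58 ± 0.25 (unadjusted p = 0.0278). Bcas1, a marker of oligodendrocytes that are starting to myelinate (chromosome 2, 170346991 to 170427845), had medians of 112 and 74.4 CPM and -0.31 ± 0.14 (unadjusted p = 0.0295). Without the covariate they stood at -1.17 and -0.56, and without control replicate 6 at -0.34 and -0.18. Other annotated genes overlap 32.2% of the Bcas1 span, and the strand setting of the counting is not given in the sources used here. In the 8 libraries of similar background the list median was -0.24. The 5 oligodendrocyte precursor members above background had a median of -0.13, with 2 higher and 3 lower, and 0 passed.

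**Figure D4:**
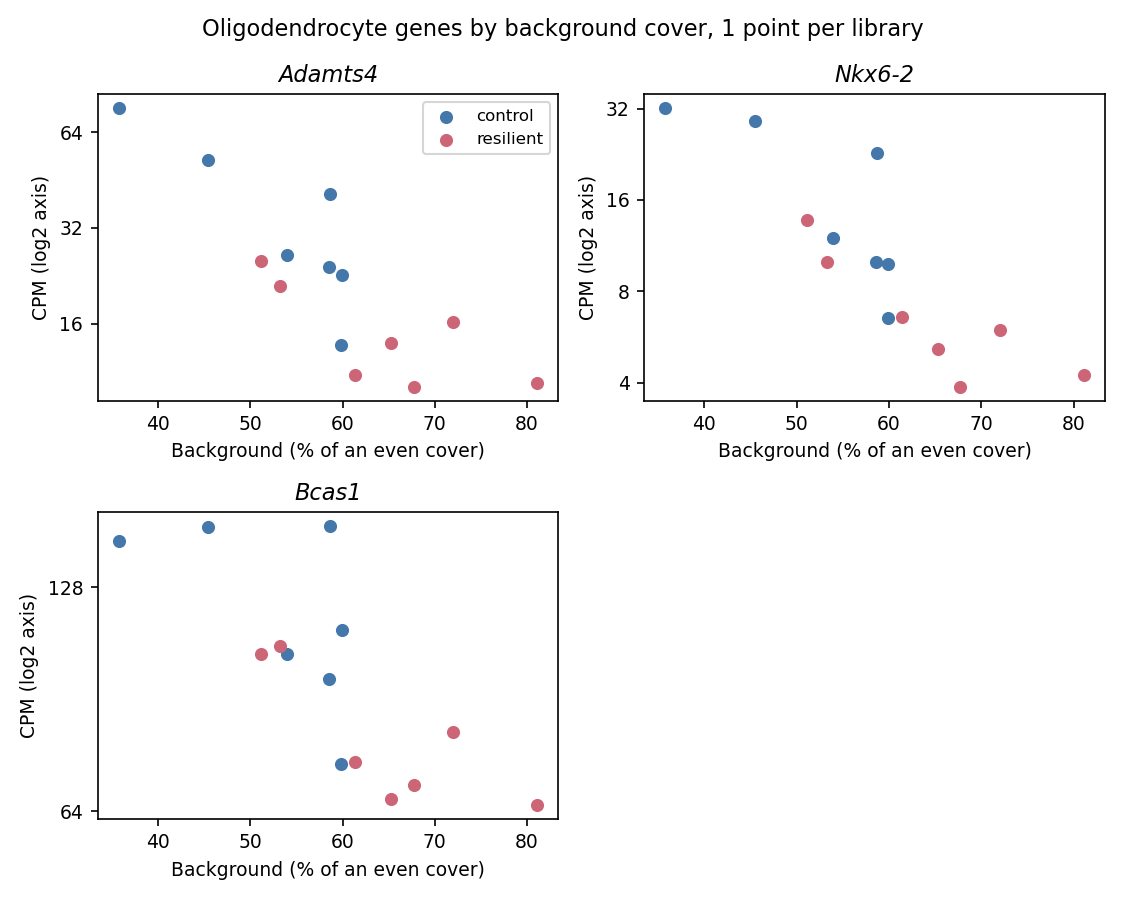
CPM on a log2 axis against background (percent of an even cover) for Adamts4, Nkx6-2 and Bcas1, 1 point per library, control and resilient by colour. All resilient points of Adamts4 and Bcas1 lie below the control medians of 26.4 and 112 CPM.

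Genes of astrocyte identity were abundant in both groups and gave no clear difference. Of 32 members, all above background, 24 were lower and 8 higher with the covariate (median -0.13), 0 passed, and 1, Gfap, was at an unadjusted p under 0.05. The median was -0.57 without the covariate, 0.21 in the libraries of similar background and 0.21 without control replicate 6, so its direction rests on the setting. Without resilient replicate 1 it was -0.45. The list's summed FPKM was widest in the resilient group, from 149 to 911 with a median of 269, against 311 to 848 with a median of 436 in control libraries.

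Atp1b2, whose product carries the sorted epitope (chromosome 11, 69599736 to 69605942), lay 78.6 times above background. It ran from 133 through 246 to 494 CPM in control and from 63.6 through 123 to 463 CPM in resilient libraries, with 4 resilient libraries below all controls. The log2 difference was -0.19 ± 0.33 with the covariate and -0.63 without it. Slc1a3, the glutamate transporter GLAST, ran from 493 through 766 to 1634 CPM and from 249.7 through 409 to 1685 CPM. It differed by -0.10 ± 0.31, and by 0.28 in the libraries of similar background. Aldh1l1, which encodes a folate enzyme and serves as an astrocyte marker, had medians of 141 and 106 CPM and 0.04 ± 0.12, which turned to -0.29 without the covariate. Aqp4, the water channel of astrocyte endfeet, had medians of 113 and 52.7 CPM and -0.48 ± 0.29 (unadjusted p = 0.121). It stood at -0.85 without the covariate, at -0.21 in the libraries of similar background and at -0.05 without control replicate 6. Other annotated genes overlap 31.9% of the Aldh1l1 span and 36.7% of that of Aqp4.

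Gfap, the intermediate filament that marks reactive astrocytes (chromosome 11, 102887336 to 102900912), had the smallest p among all genes above background. It ran from 17.0 through a median of 22.2 to 40.5 CPM in control libraries and from 17.8 through 18.7 to 59.99 CPM in resilient libraries. In CPM the groups overlapped almost entirely and the resilient median was the lower one. With the covariate the log2 difference was 0.60 ± 0.18 (unadjusted p = 0.00228, adjusted p = 1), and 0.24 ± 0.28 without it. Gfap decreased by 0.47 on the log2 scale per 10 points of background over the 22 NAc libraries. In the libraries of similar background the difference was 0.76, and without resilient replicate 1, whose 59.99 CPM was the highest value, it was 0.31.

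The list of reactive astrocyte genes had a median nearer to 0. Of 10 members above background, 8 were higher and 2 lower, with a median of 0.09, which was -0.16 without the covariate. The members include Serping1, a complement inhibitor, at 0.22, Serpina3n, a protease inhibitor, at 0.21, C4b, a complement factor, at 0.14 and Vim, vimentin, at 0.06, the last 3 singled out after their values were seen. Hspb1 is on this list too, at -0.91, farther from 0 than Gfap and in the other direction. Clcn2, a chloride channel of endfeet that binds the adhesion protein GlialCAM, had medians of 20.0 and 18.0 CPM, and a log2 difference of 0.31 ± 0.12 (unadjusted p = 0.0170) that was -0.035 without the covariate. Of the 17 endfoot channels and connexins above background, 13 were lower and 4 higher (median -0.09), and 0 passed. Thbs4, a thrombospondin that astrocytes secrete, had medians of 33.2 and 35.1 CPM, and its 0.56 ± 0.21 (unadjusted p = 0.0145) went to 0.16 without resilient replicate 1, at 104 CPM, and to 0.28 without the covariate.

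**Figure D5:**
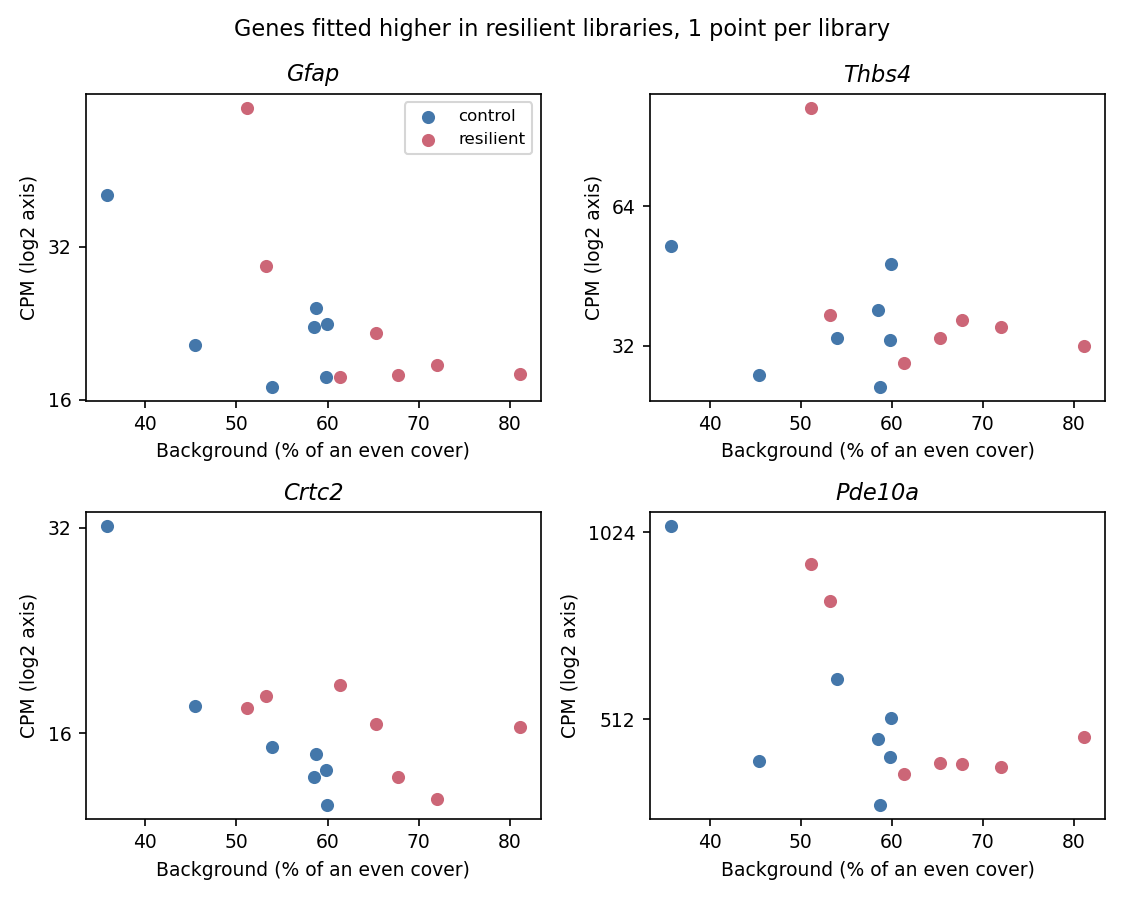
CPM on a log2 axis against background (percent of an even cover) for Gfap, Thbs4, Crtc2 and Pde10a, 1 point per library, control and resilient by colour. For Gfap the highest resilient point is 59.99 CPM at the lowest resilient background, 51.1%, and the other resilient points lie within the range of the controls.

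No difference in CREB itself was found at this depth. Creb1 lay at 1.73 and Crem, a CREB-related modulator, at 1.46 times background, so neither counts as well above it. Creb1 had medians of 55.2 and 51.3 CPM in control and resilient libraries and a log2 difference of -0.10 ± 0.16 (unadjusted p = 0.550). Crem differed by 0.06 ± 0.13 and Atf1, the closest relative of CREB above background, by 0.05 ± 0.10. The direction of all 3 turned in at least 1 other setting. Of 9 family members and coactivators above background, 6 were lower and 3 higher (median -0.07), and 0 passed.

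Crtc2, a coactivator that enters the nucleus and binds CREB when cAMP or calcium rises (chromosome 3, 90254163 to 90264125), was the member with the smallest p. It ran from 12.6 through 14.9 to 32.2 CPM in control and from 12.8 through 16.5 to 18.8 CPM in resilient libraries, so no resilient library lay above all controls. The log2 difference was 0.33 ± 0.13 (unadjusted p = 0.0180), and 0.04 without the covariate. Crebbp, the acetyltransferase CBP that CREB recruits, had medians of 197 and 141 CPM and -0.19 ± 0.15 (unadjusted p = 0.207). Of 13 cAMP and protein kinase A genes, 9 were higher and 4 lower (median 0.05, and -0.17 without the covariate), and 0 passed. The cAMP response element TGACGTCA was in 2.95% of the promoters of genes above background, in 0 of 45 on the lower side and in 4.29% of 70 on the higher side, where 1 gene supplied all matches.

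Immediate early genes, which neurons and glia switch on within minutes of a stimulus, were split. Of 14 above background, 10 were lower and 4 higher (median -0.11), and 0 passed. Ier5, a regulator of heat shock factor activity, had medians of 2.88 and 3.91 CPM and a log2 difference of 0.55 ± 0.19 (unadjusted p = 0.00788, from as few as 2 counts in a library), and 0.27 without the covariate. Jun, a subunit of AP-1, had medians of 12.3 and 4.44 CPM and -0.47 ± 0.23 (unadjusted p = 0.0521), with 5 of 7 resilient libraries below all controls. It stood at -1.003 without the covariate, at -0.16 in the libraries of similar background and at -0.26 without control replicate 6. Other annotated genes overlap 21.6% of the Jun span.

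Glucocorticoid target genes, which report stress hormone, had a median of -0.05 over 14 members above background, with 6 higher and 8 lower, and 0 passed. Hif3a, a hypoxia-inducible factor subunit, had medians of 54.1 and 47.6 CPM and 0.28 ± 0.13 with the covariate. Zbtb16, the zinc finger factor PLZF, had medians of 249.8 and 221 CPM and 0.23 ± 0.11. Both were below 0 without the covariate, at -0.09 and -0.16. The 15 clock genes above background had a median of 0.07, and Npas2, a partner of the clock factor BMAL1, stood at 0.17 ± 0.08 (unadjusted p = 0.0374), and at -0.03 without the covariate.

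Neuronal transcripts, from cells that the sort does not target, stood slightly higher with the covariate. All 10 striatal projection neuron genes above background were higher, from 0.04 to 0.37 with a median of 0.21, and 0 passed. Without the covariate 5 were higher and 5 lower (median -0.02). With the covariate the median was 0.03 without resilient replicate 2. Pde10a, the cyclic nucleotide phosphodiesterase of these neurons, ran from 373 through 476 to 1047 CPM in control and from 418 through 436 to 909.6 CPM in resilient libraries. Its log2 difference was 0.37 ± 0.15 (unadjusted p = 0.0212), and 0.01 without the covariate. Adora2a, an adenosine receptor, had medians of 16.8 and 19.7 CPM and 0.21 ± 0.12 (unadjusted p = 0.0938). Stmn3, a neuronal stathmin that acts on microtubules, had medians of 7.15 and 8.23 CPM and 0.33 ± 0.15 (unadjusted p = 0.0316), with 4 resilient libraries above all controls. Their part in the other results was not tested.

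Markers of the remaining cell types gave small medians. The 6 microglial genes above background, of 22 listed, had a median of 0.18 with 5 higher, the 9 endothelial genes -0.08, and the 12 pericyte and smooth muscle genes -0.10 with 11 lower. None of these passed. Summed FPKM of the microglial list ran from 6.56 to 13.8 in control and from 6.48 to 9.92 in resilient libraries, and those of the pericyte list from 21.4 to 62.01 and from 18.2 to 47.9.

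Extracellular matrix genes and their proteases were lower in 11 of 12 cases (median -0.15), led by Adamts4 and by Adamts1, a related protease, at -0.43 ± 0.21 (medians 11.9 and 8.48 CPM, unadjusted p = 0.0478), which was -0.57 without the covariate and -0.26 without control replicate 6. The carbonic anhydrases, enzymes that interconvert carbon dioxide and bicarbonate, had 3 of 4 members above background lower and 1 higher (median -0.31), and 0 passed. Car4, the membrane-anchored form (chromosome 11, 84957786 to 84966044), ran from 9.87 through 12.9 to 19.1 CPM in control and from 7.18 through 9.10 to 11.3 CPM in resilient libraries, and 6 of 7 resilient libraries lay below all controls. Its log2 difference was -0.36 ± 0.12 (unadjusted p = 0.00753) with the covariate and -0.52 without it. Car11, a related protein without enzyme activity (chromosome 7, 45699843 to 45704682), had medians of 6.41 and 6.06 CPM and stood at 0.60 ± 0.20 (unadjusted p = 0.00622) with the covariate and 0.17 without it. Hey2, a transcriptional repressor downstream of Notch, had medians of 14.0 and 9.55 CPM and -0.35 ± 0.17 (unadjusted p = 0.0446), with all 7 resilient libraries below the control median. Hey2 stood at -0.17 without control replicate 6.

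Lists of protein synthesis, energy and lipid genes lay within 0.1 of the median of all genes above background with the covariate. Cytosolic ribosomal proteins had a median of -0.12 (32 of 38 lower), nuclear respiratory chain subunits -0.08 (29 of 34 lower), proteasome subunits -0.07, glycolysis, glycogen and lactate genes -0.01, fatty acid and lipid transport genes -0.04, and cholesterol synthesis 0.03. Without the covariate these were -0.54, -0.37, -0.37, -0.37, -0.40 and -0.22. Genes of glutamate and GABA handling, a core task of astrocytes, had a median of -0.11 (9 of 12 lower), and those of synapse formation and engulfment 0.00 (7 of 13 higher). Integrated stress response genes had a median of -0.04, calcium signalling receptors -0.01, Notch, BMP and Wnt genes 0.01, and interferon and antigen presentation genes 0.03. None of these genes passed the test in either fit. Transcripts of mitochondrial DNA made up 0.490 to 1.77% of counts in resilient and 0.771 to 1.92% in control libraries, a difference of means of -0.433 points (two-sided exact permutation p = 0.113).

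The other genes with the smallest p on the higher side include 2 potassium channel genes. Kcnt1, a sodium-activated potassium channel, ran from 33.4 through 48.9 to 56.4 CPM in control and from 44.6 through 58.0 to 78.2 CPM in resilient libraries (0.37 ± 0.12, unadjusted p = 0.00610). Kcnd3, a subunit of A-type potassium channels, stood at 0.23 ± 0.09, with all 7 resilient libraries above the control median. Fam131a stood at 0.39 ± 0.14, Ntmt1, an N-terminal methyltransferase, at 0.34 ± 0.13, and Zic4, a zinc finger factor, at 0.60 ± 0.21. These 5 kept their direction without the covariate, at 0.23, 0.15, 0.29, 0.26 and 0.42. Zic4 stood at 0.31 without resilient replicate 1. Ccnd3, a D-type cyclin, stood at 0.31 ± 0.12, at 0.12 without the covariate and at 0.18 without resilient replicate 1. Pitpnm2, a lipid transfer protein, at 0.30 ± 0.10 and Pld3, a lysosomal nuclease, at 0.29 ± 0.11 were -0.05 and -0.04 without the covariate.

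On the lower side, Mgp, the matrix Gla protein that inhibits calcification, ran from 6.55 through 11.9 to 18.1 CPM in control and from 4.09 through 5.77 to 7.80 CPM in resilient libraries (-0.77 ± 0.33, unadjusted p = 0.0268), and all 7 resilient libraries lay below the control median. Procr, the endothelial protein C receptor, stood at -0.55 ± 0.23 (-0.33 without resilient replicate 1), and Serpinb1a, a protease inhibitor, at -0.48 ± 0.21. Avpi1 stood at -0.50 ± 0.18 and Tmem19 at -0.28 ± 0.12. S100a5, a calcium-binding protein, stood at -0.52 ± 0.22 and had no count in the shallowest control library. Pseudogenes supplied 34 of the 92 genes lower at an unadjusted p under 0.05 and 10 of the 92 higher, where they are 18.2% of all genes above background. Reads of a pseudogene can be shared with its parent gene, so those values are uncertain.

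Only a few genes kept the groups apart in CPM, which carries the scaling of the fit but not the covariate. Over all genes tested, 13 had every resilient library above every control (0.0362%) and 8 had the opposite (0.0223%), and among genes above background these numbers were 1 and 5. Whether so few exceed what chance gives was not tested. Ptpdc1, a phosphatase linked to cilia, ran from 46.5 through 52.8 to 61.6 CPM in control and from 37.9 through 43.4 to 46.1 CPM in resilient libraries (-0.26 ± 0.09, unadjusted p = 0.00878). Zkscan5, a zinc finger protein, ran from 19.4 to 24.9 and from 14.9 to 19.1 CPM (-0.23 ± 0.11, unadjusted p = 0.0368). Cyp4f16, a cytochrome P450, ran from 16.4 to 21.4 and from 13.6 to 16.3 CPM (-0.22 ± 0.10, unadjusted p = 0.0407). The nearest libraries of the groups lay close together, and the thinnest library held 48, 18 and 14 counts of these genes.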

How the data were processed

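Counts per gene for 55401 genes were made by the authors with featureCounts on mm10, per the submitters' processing notes. No aligner, version, annotation or strand option is given in the sources used here. FPKM as deposited equal these counts over gene length and library total. The length they imply was the whole gene span of GENCODE M21, introns included, for 54229 of 54229 genes compared, so counts cover introns, and 55141 identifiers matched that release. Per the labels' protocols, 500 pg of total RNA went into Takara's stranded Pico kit.

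The 22 NAc libraries were fitted in edgeR 4.0.16 (R 4.3.3) by robust quasi-likelihood with TMM scaling, filterByExpr by group and the background percent as covariate. The background percent is the receptor FPKM over that of an even cover, 0.764 for 1308.8 Mb of spans. Benjamini-Hochberg adjustment ran over all 35943 genes at a threshold of 0.05. DESeq2 1.42.0, limma 3.58.1 and other scalings, filters, library sets and covariates were alternatives. Group values are mean ± SD, and fold changes are log2 with their SE. All p-values are two-sided and measure the spread between libraries as labelled.

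Named genes needed an average log2 CPM above 1 and a plain symbol among genes above background: the 12 smallest p in each direction, list members at an unadjusted p under 0.05 or among the 4 smallest p of a list, genes whose groups did not overlap, and 7 set genes (Creb1, Crem, Atf1, Atp1b2, Aldh1l1, Aqp4, Slc1a3). Some genes that this rule names are not reported here. There were 34 gene lists. Members and lists were chosen with earlier results of these data known. The test was checked on simulated counts with known changes over 35452 genes, with 8 false calls of 172. The simulation kept each gene's fitted slope on background, and its counts were drawn for each gene on its own from the dispersions of the fit. Its changes were set only in better counted genes above background, so recovery may be overstated for the other genes.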

Additional observations from a re-analysis of the deposited data

Results flagged for a closer look

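In 19 of 112 sets of 7 library values looked at, 1 library stood apart by Dixon's ratio at its 95% limit, where chance gives about 1 in 20. Control replicate 3, the library with the fewest counts and the lowest background, was the highest control for Gfap (40.5 CPM), Crtc2 (32.2), Pde10a (1047 CPM), Car11 (19.1), Hif3a (96.5), Zbtb16 (495 CPM), Pitpnm2 (261) and Pld3 (42.9), and the lowest for S100a5, at 0 CPM. Resilient replicate 1, the resilient library of lowest background, was the highest of its group for the mitochondrial share of counts (1.77%), Gfap (59.99 CPM), Atp1b2 (463), Slc1a3 (1685), Thbs4 (104) and Zic4 (54.8 CPM). Control replicate 6 was the highest control for Hey2 (22.9 CPM) and Fam131a (15.1), and control replicate 4 for Ccnd3 (122). Control replicate 2 was the lowest control for Stmn3 (5.78 CPM). These genes share libraries, so the flags are not independent of each other.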

How the results depend on the processing

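Across 31 other settings 0 genes passed, with smallest adjusted p-values from 0.309 (DESeq2) to 1. The number of genes at an unadjusted p under 0.05 was 533, with 92 higher and 92 lower above background, and it depended on the setting. The counts, with those above background higher and lower in brackets, were 2206 (54 and 1222) without the covariate, 1871 (53 and 913) with the log2 library total as covariate instead, 3735 (218 and 583) with scaling over genes above background and no covariate, 1564 (269 and 241) with background-subtracted FPKM, 1076 (172 and 174) with limma-voom and quality weights, 464 (82 and 60) with limma-trend on log2(FPKM + 0.5), 786 (112 and 159) with DESeq2, 1342 (193 and 179) without the count filter, 328 (45 and 70) with a minimum count of 30, 347 (57 and 72) with only the 14 libraries, 983 (159 and 275) with all 39, 648 (162 and 108) in the libraries of similar background, 767 (128 and 143) without control replicate 3 and resilient replicate 7, the extremes of background, 1238 (67 and 463) without these extremes and the covariate. A fold above 1.3 as well left 412 genes. The sets of libraries of similar background and without the extremes were chosen after seeing the data. Leaving out 1 library at a time gave 497 to 872 genes, 50 to 233 higher and 96 to 329 lower above background. The library whose absence gave 872 and 233 was control replicate 6, and that which gave 50 and 329 was resilient replicate 1, while without control replicate 5 or 7 the lower ones were 172 and 240. The cause of these shifts was not tested. 

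Of 1641 log2 fold changes of 53 named genes under these settings, 42 turned in sign and 1599 did not, and 38 genes kept their direction in every setting tried. Without the covariate, the sign turned for Aldh1l1 at -0.29, Clcn2 at -0.035, Crem at -0.030, Atf1 at -0.058, Hif3a at -0.088, Zbtb16 at -0.16, Npas2 at -0.031, Pitpnm2 at -0.048, Pld3 at -0.043 and the median of striatal projection neuron at -0.017. With the library total as covariate, the sign turned for Aldh1l1 at -0.27, Clcn2 at -0.032, Crem at -0.029, Atf1 at -0.043, Hif3a at -0.038, Zbtb16 at -0.086, Npas2 at -0.014, Pitpnm2 at -0.0024 and Pld3 at -0.018. In the libraries of similar background, the sign turned for Atp1b2 at 0.20, Slc1a3 at 0.28, the median of endoplasmic reticulum chaperones at 0.011, the median of astrocyte identity at 0.21 and the median of the CREB family and coactivators at 0.041. With all 39 libraries, the sign turned for Aldh1l1 at -0.065 and Creb1 at 0.0048. With background-subtracted FPKM, the sign turned for Aldh1l1 at -0.36, Crem at -0.024, S100a5 at 0.038 and Cyp4f16 at 0.056. With limma-voom, the sign turned for Slc1a3 at 0.020, Creb1 at 0.050 and the median of the CREB family and coactivators at 0.041. With only the 14 libraries, the sign turned for Aldh1l1 at -0.0032. With scaling over genes above background and no covariate, the sign turned for Aldh1l1 at -0.10 and Creb1 at 0.019. Without the extremes of background and the covariate, the sign turned for Aldh1l1 at -0.13, Crem at -0.029 and Atf1 at -0.0022. Leaving out 1 library at a time, the values that turned ran from -0.60 to 0.20 for Atp1b2, -0.46 to 0.26 for Slc1a3, -0.088 to 0.17 for Aldh1l1, -0.19 to 0.076 for Creb1, -0.55 to 0.015 for mt-Nd6, -0.32 to 0.022 for the median of endoplasmic reticulum chaperones, -0.45 to 0.21 for the median of astrocyte identity and -0.12 to 0.068 for the median of the CREB family and coactivators. Control replicate 6 was the library left out in 7 of these 10 turns. The background difference was 8.49 to 13.6 points when 1 library was left out (exact permutation p = 0.0181 to 0.109) and 12.3 points over Olfr genes alone (exact permutation p = 0.0460). Genes above background numbered 3716 at 4 times and 27069 at 1.5 times the receptor level. 

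The labels give control and resilient libraries the same replicate numbers 1 to 7. Deviations of same-numbered libraries correlated from -0.27 to 0.50, over 0.1 in 1 of 7 pairs, and 1 of 7 controls correlated best with its own number, so the numbers were not taken as pairs. With a replicate block beside the covariate, 0 genes passed, 906 were at an unadjusted p under 0.05 (133 higher and 284 lower above background), and Crem turned to -0.035. Depth limits the thin genes: control replicate 3 has 0.941 M counts, 2 of Hspb1 and 0 of S100a5.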

Other observations

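Transcripts of mitochondrial DNA had values on both sides of 0 with the covariate, none at an unadjusted p under 0.05 (edgeR). Of 14 measured above background, 9 were lower and 5 higher with the covariate, and 0 passed. The neighbours mt-Co2, mt-Atp6 and mt-Co3, which encode subunits of cytochrome oxidase and ATP synthase, stood at 0.69 ± 0.40, 0.76 ± 0.39 and 0.70 ± 0.38 on the log2 scale (unadjusted p = 0.0962, 0.0608 and 0.0731, edgeR, n = 7 and 7). Without the covariate each of the 3 stood at 0.06, and with background-subtracted FPKM at 0.20, 0.13 and 0.10. Without resilient replicate 1 they stood at 0.29, 0.55 and 0.34. They were thinly counted for mitochondrial genes: mt-Co2 had medians of 8.55 and 4.49 CPM in control and resilient libraries, mt-Atp6 of 2.77 and 1.91, and mt-Co3 of 1.73 and 1.47. The gene mt-Nd6, a subunit of complex I on the other strand, had medians of 204 and 89.5 CPM and stood at -0.34 ± 0.31. It stood at -0.70 without the covariate and at 0.0155 without control replicate 6. Whether mt-Nd6 differs from the 3 neighbours was not tested. The nuclear genome holds near-identical copies of parts of mitochondrial DNA, so these values are uncertain. In the libraries of similar background mt-Co2 stood at 1.21, mt-Atp6 at 1.24, mt-Co3 at 1.2995 and mt-Nd6 at -0.0062.

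Nuclear and structural noncoding RNAs moved most with the covariate among the lists with at least 5 members above background. Their 12 members had a median of -0.45 without it, with 12 lower, and of 0.09 with it, with 6 higher and 6 lower.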
